A study of Mus musculus with 4 samples.

Results

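The genes described here are *Osr1*, *Osr2* and a set of transcription factor genes of embryonic mesenchyme, namely *Twist1*, *Twist2*, *Prrx1*, *Prrx2*, *Tbx15*, *Tcf21*, *Meox1* and *Meox2*. They were chosen by name, 10 genes of the 55385 gene IDs in the deposited table, and all 10 were found. They were read in lymphatic endothelial cells (LECs), the cells that line lymphatic vessels, sorted as CD45− PDPN+ CD31+ cells from the peripheral trunk of E13.5 mouse embryos, after the limbs, the tail, the inner organs and the upper head had been removed. The mutant embryos carried *Osr1* GCE/GCE, the GCE allele on both chromosomes. The *Osr1* controls are given as wild type in the sample labels, and the study counts both *Osr1* +/+ and *Osr1* GCE/+ embryos under this name, so some control cells may carry 1 GCE allele. Each group had 2 libraries, each from LECs pooled over several embryos. The GCE allele places a GFP and CreERT2 cassette in the *Osr1* locus and disrupts the gene in every cell of the embryo from the start of development, so it is not a deletion confined to mesenchyme or to LECs.

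Mesenchyme is the loose tissue in which embryonic lymphatic vessels grow, and it gives rise to dermis, connective tissue, cartilage and smooth muscle. *Osr1* and *Osr2* encode odd-skipped related zinc finger proteins, known from the development of kidney, limb connective tissue, palate and joints. *Twist1* and *Twist2* encode basic helix-loop-helix (bHLH) proteins that bind DNA paired with E proteins, and both are known as regulators of the mesenchymal state. *Prrx1* and *Prrx2* are paired-related homeobox genes of limb and facial mesenchyme, *Tbx15* is a T-box gene of dermis and skeleton, *Tcf21* is a bHLH gene of visceral fibroblast precursors, and *Meox1* and *Meox2* are homeobox genes of somites and their derivatives. None of them is a defining gene of LECs. In RNA of a sorted population, fewer cells of a type and less RNA per cell cannot be told apart.

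The members form 4 pairs of paralogues and 2 single genes, and the stretches that link the paralogues are shown because reads of a pair can be told apart only where the genes differ. The longest run of identical bases between transcripts of *Osr1* and *Osr2* (GENCODE release 21 transcripts, GRCm38) was 23 bases and lay in both coding sequences, from base 607 of 798 in *Osr1* and from base 598 of 828 in *Osr2*. It is printed in capitals, 5′ to 3′ on the coding strand, with 15 flanking bases on each side.
Osr1: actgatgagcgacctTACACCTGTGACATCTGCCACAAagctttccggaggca
Osr2: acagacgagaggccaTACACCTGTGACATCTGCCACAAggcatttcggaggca

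Between *Twist1* and *Twist2* the longest identical run was likewise 23 coding bases, from base 403 of 618 in *Twist1* and from base 265 of 480 in *Twist2*. The run is again in capitals.
Twist1: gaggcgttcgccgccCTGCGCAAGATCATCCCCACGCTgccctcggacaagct
Twist2: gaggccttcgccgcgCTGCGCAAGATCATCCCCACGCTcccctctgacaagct

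For *Prrx1* and *Prrx2* the longest run was 19 bases, and for *Meox1* and *Meox2* it was 12 bases. *Meox2* overlaps the annotated gene *Gm48617*, and the library kit did not mark strand, so its count is uncertain.

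The *Twist1* and *Twist2* promoters are shown because this was the pair in which both genes were called as lower in libraries labelled *Osr1* GCE/GCE. *Prrx1* and *Prrx2* both had lower values too, without being called. RefSeq promoter sequences (GRCm38.p6) were at hand for 6 of the 10 members, namely *Twist1*, *Twist2*, *Prrx1*, *Prrx2*, *Tcf21* and *Meox2*. The 250 bases before each start are printed on the plus strand, which is the coding strand of both genes, with CCAAT and TATAA in capitals.
Twist1 upstream, chr12:33957421-33957670: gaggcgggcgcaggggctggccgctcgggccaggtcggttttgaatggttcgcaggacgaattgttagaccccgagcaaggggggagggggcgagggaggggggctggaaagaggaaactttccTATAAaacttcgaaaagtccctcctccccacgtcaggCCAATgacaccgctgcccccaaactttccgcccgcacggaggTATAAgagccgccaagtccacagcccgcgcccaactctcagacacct
Twist2 upstream, chr1:91801211-91801460: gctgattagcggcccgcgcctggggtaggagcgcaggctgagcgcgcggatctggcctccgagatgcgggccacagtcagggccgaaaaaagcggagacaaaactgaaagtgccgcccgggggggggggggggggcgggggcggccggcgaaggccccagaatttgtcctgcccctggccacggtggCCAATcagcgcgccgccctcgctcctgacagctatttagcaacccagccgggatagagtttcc

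CCAAT or its reverse complement ATTGG began 89 bases before the start of *Twist1* and 63 bases before that of *Twist2*. It occurs in 37.4% of the 32851 mouse promoters of the same 300-base window, which runs 250 bases before to 50 bases after the start. TATAA or TTATA occurs in 24.9% of them, and began 126 and 47 bases before the start of *Twist1*, with no match in the window of *Twist2*. The E-box CANNTG, read the same on both strands, had no match in the windows of *Twist1* and *Twist2*, whereas 72.3% of all promoters hold one, and among the 6 members only *Meox2* had one (CATGTG). The homeodomain motif TAATTA, also the same on both strands, was found in *Prrx1* alone of the 6 and in 5.29% of all promoters, and the T-box site AGGTGTGA or TCACACCT in none of the 6 and in 1.28% of all.

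Read depth was 37865172 and 31586765 reads in genes in libraries labelled *Osr1* GCE/GCE, and 53438492 and 36535451 in *Osr1* controls. Values below are normalized read counts, that is reads divided by the size factor of the library, and levels compared between genes are in TPM, which also takes the exon length of a gene into account. LEC markers such as *Prox1* and *Lyve1* were read in every library, with a summed level over 11 markers of 6074 and 5615 TPM in libraries labelled *Osr1* GCE/GCE, and 3868 and 4695 TPM in *Osr1* controls. Markers of fibroblasts were read in every library too. Their summed level over 18 genes was 2564 and 2933 TPM in libraries labelled *Osr1* GCE/GCE, and 4440 and 3743 TPM in *Osr1* controls. The fibroblast sum was thus lower, and the LEC sum higher, in both libraries labelled *Osr1* GCE/GCE.

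Across the members, *Osr1* rose 7.48-fold in normalized count in libraries labelled *Osr1* GCE/GCE relative to *Osr1* controls, and *Osr2*, *Twist1* and *Twist2* fell to between 0.515 and 0.582 of the control level. *Prrx1*, *Prrx2*, *Tbx15* and *Tcf21* had lower values without passing the test, and *Meox1* and *Meox2* lay close to the controls. A call required that limma, run on log2(normalized count + 1), gave an adjusted p under 0.05 (Benjamini-Hochberg, over all tested genes) and a log2 fold change of 0.3 or more in either direction, and that the gene averaged above 1 TPM. All 10 members passed the filter of a mean of at least 10 normalized counts, 9 had a mean above 1 TPM, and 4 were called. Of all 19479 tested genes 2.89% were called, 1.13% as higher and 1.75% as lower, against 1 and 3 of the 10 members. The median log2 fold change was -0.57 over the members and -0.02 over all tested genes. All libraries labelled *Osr1* GCE/GCE lay below both control libraries for 8 members and above them for 1 member, where 28.9% and 24.7% of all tested genes did so (53.6% in either direction). The lower share among all calls was 60.7%, and it was 49.5% with TMM scaling and 70.9% with library totals, so the scaling weighs on the balance of directions.

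**Figure D1:**
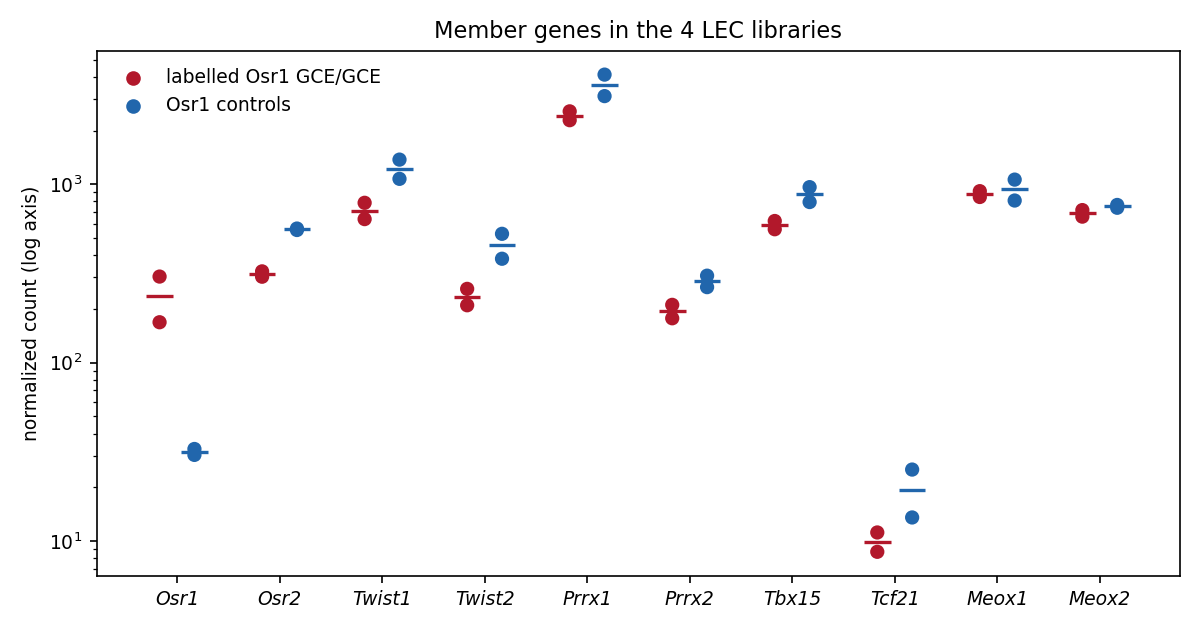
Normalized count (y axis, log scale) of each of the 10 genes (x axis) in every library, with red points for the 2 libraries labelled Osr1 GCE/GCE, blue points for the 2 Osr1 controls, and a bar at each group mean. Osr1 is the single gene with both red points above both blue points, and Meox1 the single gene whose groups overlap.

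*Osr1* (ENSMUSG00000048387.8, mm10 chromosome 12 from 9570116 to 9581500, plus strand) is the gene disrupted in these embryos. It had 168 and 303 normalized counts in libraries labelled *Osr1* GCE/GCE, against 32.8 and 30.4 in *Osr1* controls. Both libraries labelled as mutant were thus far above both controls, which goes against the label if the level alone is read as a check of a knockout. Behind these values were 155 and 245 reads in libraries labelled *Osr1* GCE/GCE, and 46 and 29 reads in *Osr1* controls. The counts cover the whole gene, and transcripts of the GCE allele and of an intact allele cannot be told apart in them. Its log2 fold change was 2.80 ± 0.31 (SE, 95% interval 2.09 to 3.52, adjusted p = 0.0262 in limma), and 3 tested genes had a larger one. The level was 7.66 and 13.9 TPM in libraries labelled *Osr1* GCE/GCE, and 1.56 and 1.48 TPM in *Osr1* controls. Leaving out each library in turn gave 2.38 to 3.23, with the gene called every time. The call was lost in edgeR on the recovered reads (log2 fold change 2.89, adjusted p = 0.0568) and in limma without its trend and robust options (adjusted p = 0.211).

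*Osr2* (ENSMUSG00000022330.5, chromosome 15 from 35296098 to 35303305, plus strand), the paralogue of *Osr1*, moved the other way. It had 303 and 325 normalized counts in libraries labelled *Osr1* GCE/GCE, against 564 and 554 in *Osr1* controls. The replicates of each group were close together, and the groups were well apart. The log2 fold change was -0.83 ± 0.14 (SE, 95% interval -1.15 to -0.51, adjusted p = 0.0333 in limma). The ratio of *Osr1* to *Osr2* in TPM was 0.974 and 1.64 in libraries labelled *Osr1* GCE/GCE, and 0.102 and 0.0961 in *Osr1* controls. The ratio was thus higher in both libraries labelled as mutant, with *Osr1* just under *Osr2* in replicate 1 and above it in replicate 2, whereas *Osr2* was by far the more abundant gene in the controls. When replicate 1 labelled *Osr1* GCE/GCE was left out the adjusted p of *Osr2* was 0.188, and without replicate 2 it was 0.0676, and edgeR with the same size factors gave 0.0568.

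No gene around *Osr1* was called with it. Within 1 Mb of its start, 9 other genes were tested, among them *Pum2*, *Sdc1*, *Laptm4a* and *Matn3*. Limma called 0 of 9, against 2.89% of all tested genes, so the lack of calls lies near that share. At an unadjusted p under 0.05 there were 2 of 9, *Pum2* and *Wdr35*, against 21.4% of all tested genes. DESeq2 called 1 and edgeR 0, and limma without control replicate 2 called 2. Their log2 fold changes had a median of -0.09 and ran from -0.69 for *Wdr35* (adjusted p = 0.0638), which encodes a protein of ciliary transport, to 0.55 for *Gm5182*. *Wdr35* had 346 and 430 normalized counts in libraries labelled *Osr1* GCE/GCE, and 685 and 568 in *Osr1* controls.

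*Twist1* (ENSMUSG00000035799.6, chromosome 12 from 33957671 to 33959829, plus strand) was the most abundant member. It had 637 and 787 normalized counts in libraries labelled *Osr1* GCE/GCE, against 1374 and 1072 in *Osr1* controls. Both controls were higher, with a wider spread between them than between the other libraries. The log2 fold change was -0.78 ± 0.16 (SE, 95% interval -1.14 to -0.41, adjusted p = 0.0458 in limma). *Twist2* (ENSMUSG00000007805.4, chromosome 1 from 91801461 to 91848028, plus strand) had 210 and 259 normalized counts in libraries labelled *Osr1* GCE/GCE, against 527 and 382 in *Osr1* controls. Here too the groups did not overlap, and control replicate 1 was the highest library. The log2 fold change was -0.94 ± 0.20 (SE, 95% interval -1.40 to -0.48, adjusted p = 0.0490 in limma). *Twist1* exceeded *Twist2* in TPM 5.93 and 5.92 times in libraries labelled *Osr1* GCE/GCE, and 5.08 and 5.47 times in *Osr1* controls, so their ratio moved by less than either gene did. Both calls sat close to the threshold and were not made with TMM scaling (adjusted p = 0.0557 for *Twist1* and 0.0580 for *Twist2*) or in edgeR (0.0706 and 0.0732). When replicate 1 labelled *Osr1* GCE/GCE was left out, the adjusted p was 0.245 for *Twist1* and 0.257 for *Twist2*, leaving out replicate 2 so labelled it was 0.0531 and 0.0692, and without control replicate 1 *Twist2* had 0.0772.

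No partner of the bHLH members was called. The list held 7 genes for E proteins, which pair with Twist and Tcf21 proteins, and Id proteins, which hold E proteins away from DNA. Limma called 0 of 7, against 2.89% of all tested genes, so the lack of calls lies near that share. At an unadjusted p under 0.05 there was 1 of 7, against 21.4% of all tested genes. DESeq2 and edgeR also called 0 of these genes. Their median log2 fold change was 0.07, with 4 above and 3 below 0. The lowest was *Id4* at -0.22 (adjusted p = 0.385) and the highest *Tcf4* at 0.33 (adjusted p = 0.118).

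*Prrx1* (ENSMUSG00000026586.16, chromosome 1 from 163245119 to 163313710, minus strand) had 2285 and 2562 normalized counts in libraries labelled *Osr1* GCE/GCE, against 4117 and 3119 in *Osr1* controls. Both controls were higher, and control replicate 1 stood above the rest. The log2 fold change was -0.57 ± 0.14 (SE, 95% interval -0.89 to -0.24, adjusted p = 0.0709 in limma), so it was not called. *Prrx2* (ENSMUSG00000039476.13, chromosome 2 from 30834972 to 30881251, plus strand) had 211 and 177 normalized counts in libraries labelled *Osr1* GCE/GCE, against 307 and 265 in *Osr1* controls. The groups were again apart, by less than for *Osr2*. Its log2 fold change was -0.56 ± 0.19 (SE, 95% interval -0.98 to -0.14, adjusted p = 0.134 in limma). The *Prrx1* to *Prrx2* ratio in TPM was 1.92 and 2.56 in libraries labelled *Osr1* GCE/GCE and 2.38 and 2.09 in *Osr1* controls, which overlap.

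*Tbx15* (ENSMUSG00000027868.11, chromosome 3 from 99240381 to 99354259, plus strand) had 559 and 622 normalized counts in libraries labelled *Osr1* GCE/GCE, against 963 and 794 in *Osr1* controls. Both controls were again the higher libraries. Its log2 fold change was -0.57 ± 0.14 (SE, 95% interval -0.89 to -0.25, adjusted p = 0.0669 in limma). *Prrx1* and *Tbx15* missed the threshold and were called as lower by DESeq2 (adjusted p = 0.00617 and 0.0160). They were not called in edgeR (adjusted p = 0.0880 and 0.0904) or in limma with TMM scaling (0.0898 and 0.0788). Each was called in 4 of 17 alternative settings and not in the other 13. With 1 library left out the log2 fold change ran from -0.77 to -0.37 for *Prrx1* and from -0.71 to -0.43 for *Tbx15*. *Tcf21* (ENSMUSG00000045680.8, chromosome 10 from 22817281 to 22820174, minus strand) was barely detected, with 8.69 and 11.1 normalized counts in libraries labelled *Osr1* GCE/GCE, against 13.53 and 25.1 in *Osr1* controls. These rest on 8 and 9 reads in libraries labelled *Osr1* GCE/GCE and on 19 and 24 reads in *Osr1* controls, and no difference was detectable at this depth (log2 fold change -0.84 ± 0.47 SE, 95% interval -1.93 to 0.24, adjusted p = 0.348 in limma).

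*Meox1* (ENSMUSG00000001493.9, chromosome 11 from 101877510 to 101894374, minus strand) had 848 and 914 normalized counts in libraries labelled *Osr1* GCE/GCE, against 1061 and 810 in *Osr1* controls. The 2 controls lay on either side of the libraries labelled *Osr1* GCE/GCE. The log2 fold change was -0.07 ± 0.15 (SE, 95% interval -0.41 to 0.26, adjusted p = 0.816 in limma), and it was 0.12 without control replicate 1. *Meox2* (ENSMUSG00000036144.6, chromosome 12 from 37108540 to 37179534, plus strand) had 658 and 716 normalized counts in libraries labelled *Osr1* GCE/GCE, against 765 and 738 in *Osr1* controls. The gap between the groups was narrow. Its log2 fold change was -0.13 ± 0.12 (SE, 95% interval -0.40 to 0.14, adjusted p = 0.577 in limma). The *Meox1* to *Meox2* ratio in TPM was 1.37 and 1.35 in libraries labelled *Osr1* GCE/GCE and 1.47 and 1.16 in *Osr1* controls. Whether the Meox pair differed in response from the Twist pair was not tested.

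**Figure D2:**
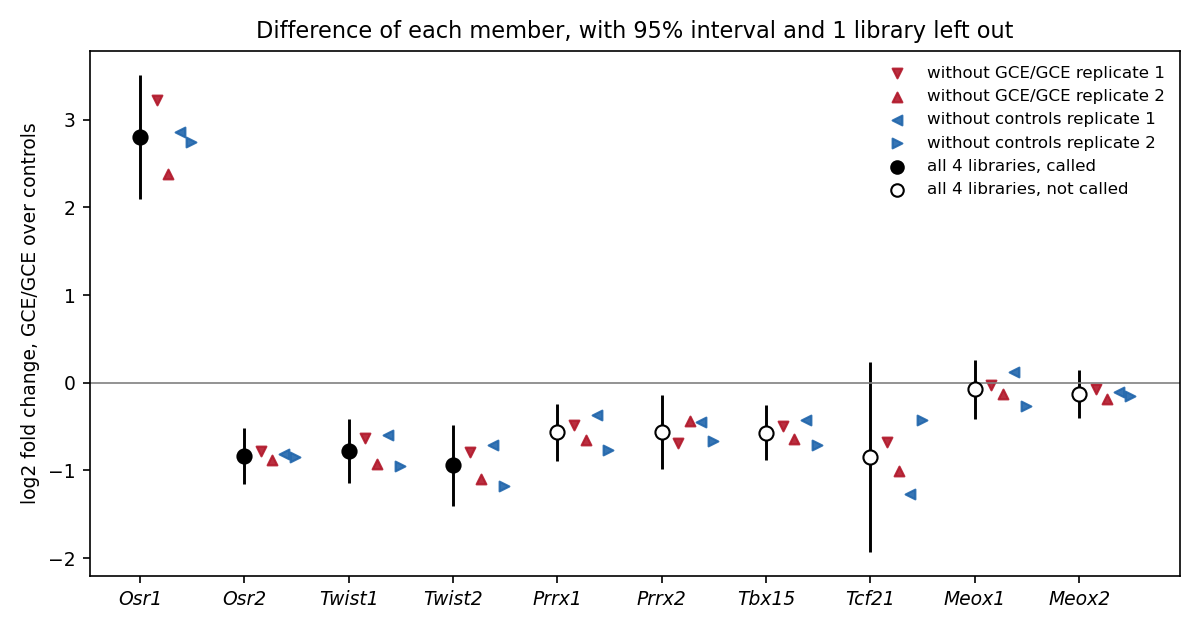
Log2 fold change of each gene (y axis, libraries labelled Osr1 GCE/GCE over Osr1 controls) with its 95% interval in limma, as a filled circle where called and an open circle where not, and as triangles with 1 library left out. Osr1 stays between 2.38 and 3.23, and the triangles of Meox1 lie on both sides of 0.

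Ordered by level in libraries labelled *Osr1* GCE/GCE, *Twist1* (mean 41.2 TPM) and *Meox1* (37.3 TPM) came first and overlapped in range, followed by *Meox2* at 27.4, *Prrx1* at 20.7 and *Tbx15* at 14.9 TPM. *Osr1* had a mean of 10.8 TPM there, with a range that took in all of *Prrx2* at 9.32 and *Osr2* at 8.16 TPM and reached that of *Twist2*, and *Twist2* at 6.96 and *Tcf21* at 0.398 TPM came last. In *Osr1* controls the order was *Twist1* at 74.6, *Meox1* at 41.7, *Prrx1* at 32.4 and *Meox2* at 31.6 TPM, where the range of *Meox2* fell within that of *Prrx1*. *Tbx15* followed at 23.3 TPM, and *Osr2* at 15.3, *Prrx2* at 14.5 and *Twist2* at 14.2 TPM could not be ranked beyond their spread. *Osr1* at 1.52 and *Tcf21* at 0.821 TPM were the lowest in the controls. By its mean *Osr1* thus stood sixth of the 10 in libraries labelled *Osr1* GCE/GCE, where its place differed between the replicates, and ninth in the controls.

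The members are genes of mesenchyme and the libraries are of sorted LECs. Each member was therefore also expressed per summed normalized count of the 18 fibroblast markers. The paper reports *Col3a1* and *Cxcl12*, both in this sum, as downregulated in *Osr1* GCE/GCE mesenchymal cells. The sum is thus not a neutral measure of fibroblast content. That sum was 205070 and 236412 in libraries labelled *Osr1* GCE/GCE, and 343068 and 280711 in *Osr1* controls, a log2 difference of -0.50, close to the median of the members. On this scale *Osr1* stood at 0.821 and 1.28 counts per 1000 marker counts in libraries labelled *Osr1* GCE/GCE, and 0.0955 and 0.108 in *Osr1* controls, a log2 difference of 3.34. *Twist2* had 1.02 and 1.10 per 1000 marker counts in libraries labelled *Osr1* GCE/GCE, and 1.54 and 1.36 in *Osr1* controls, a log2 difference of -0.45. *Osr1* thus remained higher and *Twist2* lower with the groups apart. The log2 difference was -0.34 for *Osr2* and -0.28 for *Twist1*, also with the groups apart, so less than that in normalized count. *Prrx1*, *Prrx2* and *Tbx15* each came to -0.07, where the groups overlapped except for *Tbx15*, and *Tcf21* had -0.41 with overlapping groups. *Meox1* at 0.42 and *Meox2* at 0.36 were higher per marker count in both libraries labelled *Osr1* GCE/GCE, although neither was higher in normalized count.

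The choice of markers shifts this scale. Without the 3 markers of highest level, *Col1a1*, *Col1a2* and *Col3a1*, the marker sum differed by -0.27 on the log2 scale. Per this sum 6 members had lower groups, 3 higher and 1 overlapping. The share of all tested genes with groups apart was not computed per marker count, so these counts have no background. In normalized count that share was 53.6%. With *Pdgfra* alone, which differed by -0.61, only *Twist1* (-0.17) and *Twist2* (-0.34) had lower groups, *Osr1* (3.45), *Meox1* (0.53) and *Meox2* (0.48) had higher groups, and *Prrx1*, *Prrx2* and *Tbx15* lay at 0.04 and overlapped, as did *Osr2* (-0.23) and *Tcf21* (-0.30). *Osr1*, *Meox1* and *Meox2* were thus higher, and *Twist1* and *Twist2* lower, with each of the 3 marker sets. All 3 marker levels were lower in both libraries labelled *Osr1* GCE/GCE. A gene close to the controls in normalized count, such as *Meox1* or *Meox2*, therefore comes out higher by division. Agreement among the sets adds nothing for these 2 genes. The sign of *Prrx1*, *Prrx2* and *Tbx15* turned with the set. These are values with no test, and the part of the fibroblast marker level in the members' differences was not tested.

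**Figure D3:**
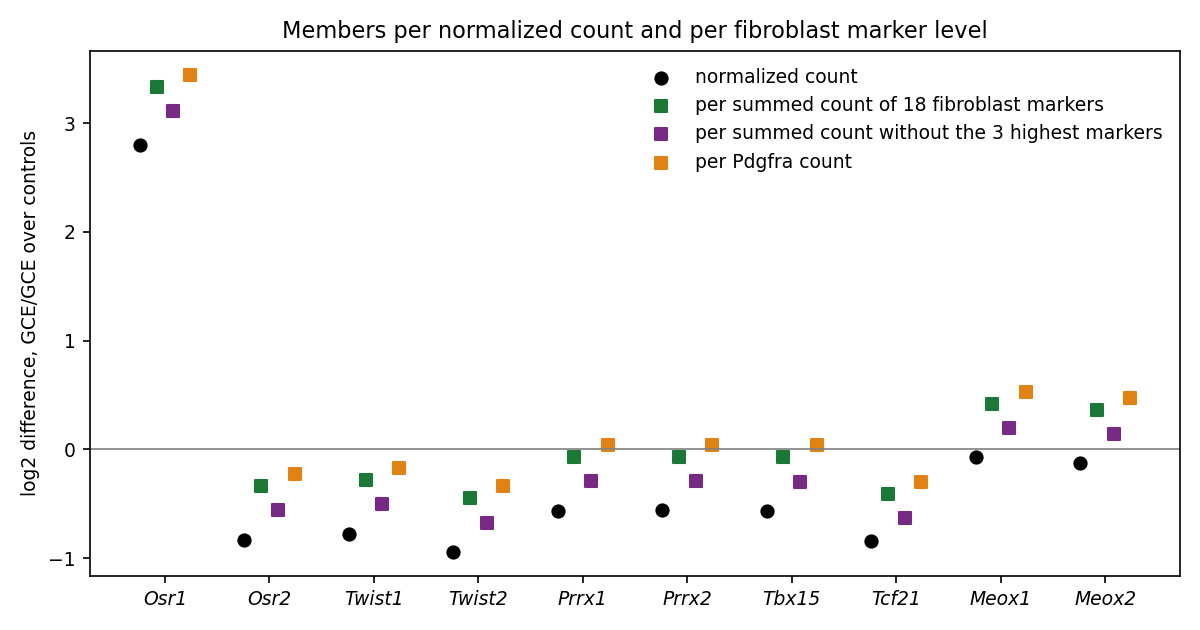
Log2 difference of each gene (y axis, libraries labelled Osr1 GCE/GCE over Osr1 controls) in normalized count (black circles) and per count of 3 sets of fibroblast markers (squares). Relative to the sum of 18 markers Osr1 lies at 3.34 and Meox1 at 0.42, and Twist1 and Twist2 lie below 0 with every set.

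Other transcription factors of mesenchyme had mostly lower values too. Of 38 such genes, 0 were called as higher and 3 as lower in limma, against 1.13% and 1.75% of all tested genes. There were 34 with values below and 4 above 0. In 25 the groups were apart with the libraries labelled *Osr1* GCE/GCE below the controls, as in 28.9% of all tested genes. At an unadjusted p under 0.05 there were 20 of the 38, against 21.4% of all tested genes. The list was fixed with results of these data known, so these shares describe it and are no test of it. The median log2 fold change of the list was -0.48, against -0.57 for the members. The homeobox gene *Msx1*, known from limb and facial mesenchyme, had 199.8 and 251 normalized counts in libraries labelled *Osr1* GCE/GCE, and 512 and 409 in *Osr1* controls (log2 fold change -1.03, adjusted p = 0.0377 in limma). *Six2*, known from kidney and head mesenchyme, had 188 and 224 in libraries labelled *Osr1* GCE/GCE, and 471 and 361 in *Osr1* controls (-1.003, adjusted p = 0.0407). For both genes the libraries labelled *Osr1* GCE/GCE were below both controls, and their fold changes are near those of *Osr2*, *Twist1* and *Twist2*. Leaving out replicate 1 labelled *Osr1* GCE/GCE left 0 calls in this list, whereas 16 genes were called as lower without control replicate 2.

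Some lists of cell type markers had calls as lower, others did not. Of all tested genes 1.75% were called as lower and 1.13% as higher. Among the 18 fibroblast markers 6 were called as lower (*Col1a1*, *Col6a3*, *Mfap4*, *Cxcl12*, *Crabp1* and *Dlk1*) and 1 as higher (*Thy1*). Values were lower for 16 and higher for 2, with a median log2 fold change of -0.55. The other higher marker was *Fbn1* (log2 fold change 0.30, adjusted p = 0.104 in limma, groups apart). *Pdgfra*, the receptor used to define fibroblast lineages, had 3235 and 3945 normalized counts in libraries labelled *Osr1* GCE/GCE, and 6507 and 4542 in *Osr1* controls (log2 fold change -0.61, adjusted p = 0.151). Of 11 LEC markers 5 were called as higher and 0 as lower. All 11 had higher values, with a median log2 fold change of 0.61. Mesothelial markers, 7 in the list and all 6 tested with lower values and 0 called in limma (5 at an unadjusted p under 0.05), had a summed level of 9.52 and 10.2 TPM in libraries labelled *Osr1* GCE/GCE, and 17.3 and 23.1 TPM in *Osr1* controls. Smooth muscle and pericyte markers had a median of -0.86 and 2 of 8 called as lower, and skeletal muscle markers a median of -0.72 and 3 of 8 called as lower. Of 6 markers of blood endothelial cells 1 was called as higher (*Kdr*) and 0 as lower. Values were lower for the other 5, with a median log2 fold change of -0.16 over the 6. Of 7 blood cell, 5 glia and neuron and 4 epithelial markers limma called 0 (0, 3 and 1 at an unadjusted p under 0.05). Of the sort markers, *Pdpn* rose with a log2 fold change of 0.61 (adjusted p = 0.0329 in limma), and *Pecam1*, which encodes CD31, had 0.23 (adjusted p = 0.204). The part of these marker levels in the members' values was not tested.

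**Figure D4:**
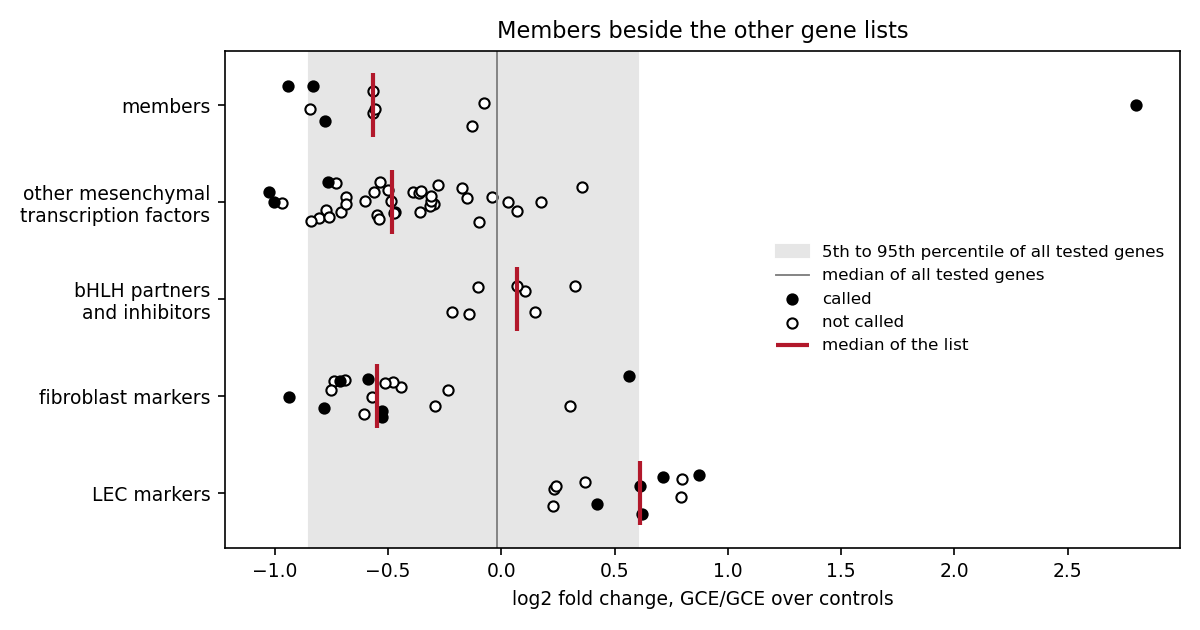
Log2 fold change (x axis, libraries labelled Osr1 GCE/GCE over Osr1 controls) of the genes of 5 lists, filled where called in limma, with the median of each list as a red line and the 5th to 95th percentile of all tested genes (-0.85 to 0.60) shaded. The members, the other mesenchymal transcription factors and the fibroblast markers centre at -0.57, -0.48 and -0.55, and the LEC markers at 0.61.

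The genes most like *Osr1* and *Osr2* over the 4 libraries were found by Euclidean distance between log2 values centred on each gene's mean, among 14511 genes with a mean of at least 50 normalized counts. *Osr1* had no close match, since the nearest gene, *Ibsp*, which encodes a bone matrix protein, lay at a distance of 1.001, where the size of the *Osr1* pattern itself was 2.87. *Ibsp* had 89.0 and 334 normalized counts in libraries labelled *Osr1* GCE/GCE, and 14.96 and 26.2 in *Osr1* controls, and was not called (log2 fold change 3.06, adjusted p = 0.0889 in limma). *1810020O05Rik*, *Cyp4b1*, *Mir703* and *Gm42047* followed, at 1.31 to 1.58. *Osr2* had many neighbours, since *Rimklb* (0.0442), *Kank1* (0.0621), *Srpx2* (0.0691), *Glrx* (0.0706) and *Insyn1* (0.0744) all lay much nearer than the size of its pattern, 0.835. *Rimklb* had 1059 and 1088 normalized counts in libraries labelled *Osr1* GCE/GCE, and 1936 and 1879 in *Osr1* controls. Over 4 libraries, any gene with a like difference between the groups and a small spread within them lies close by construction.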

How the data were processed

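RNA of sorted E13.5 LECs was measured in 4 libraries, 2 per group. The authors prepared unstranded TruSeq V2 libraries, aligned reads to mm10 with STAR, counted reads per gene (featureCounts) and scaled them by the size factors of DESeq2, with all versions not given in the sources used here. Signal values as deposited are these normalized counts, and multiplied by the size factors 100% came out whole within 0.001 reads, so whole reads were recovered. Symbols and coordinates came from GENCODE mouse release 21, which held 55144 of 55385 gene IDs. TPM used the union length of exons. The groups were compared with limma 3.58.1 in R 4.3.3 (lmFit, eBayes with trend and robust options) on log2(normalized count + 1) for genes averaging 10 or more, with Benjamini-Hochberg adjustment. Fold changes on this scale understate those of low genes. Tests of the recovered reads in edgeR 4.0.16 and DESeq2 1.42.0, other scalings, filters and pseudocounts (0.5 and 5) and leaving out each library were alternatives, and DESeq2 with the authors' size factors called 1453 genes. Scripts were tested on simulated data. The labels do not say that pools were separate beyond being separate samples, so p-values measure the spread between these libraries, and with 2 against 2 an exact permutation test cannot go below 0.333. The members and gene lists were chosen with earlier results of these data known. Named genes were all members, called genes of the other lists (at most 6 per direction), the 5 genes most like *Osr1* and *Osr2*, and sort markers, while *Pum2*, *Wdr35*, *Gm5182*, *Id4*, *Tcf4* and the genes of the marker lists were named after their values were seen. Of the genes this rule names, 1 is not reported here.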

Additional observations from a re-analysis of the deposited data

How the results depend on the processing

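Over 169 alternative values of the members' log2 fold changes, 136 kept direction and side of the threshold, 24 lost a call, 8 gained one and 1 reversed, which was *Meox1*, at -0.27 to 0.12 with 1 library left out and above 0 only without control replicate 1. *Osr1* was the 1 member called as higher except in edgeR with the authors' size factors and in limma without trend and robust options, with 0 each. Members called as lower, 3 in the report, numbered 5 with DESeq2, no filter on low values or the crossed pairing, 1 with TMM scaling, edgeR with TMM and robust options or a mean of at least 50, and 0 in edgeR or in limma without those options. They ranged from 0 to 5 with 1 library left out. Other mesenchymal transcription factors called as lower numbered 12 with DESeq2, 6 without a filter, 0 in edgeR and 0 in limma without those options, and 0 to 16 with 1 library left out. Without a filter 1 bHLH partner and 1 gene near *Osr1* were called, DESeq2 called 1 near *Osr1*, and leaving out 1 library gave 0 to 2 there. All genes called, 562 in the report, numbered 1453 with DESeq2, 1120 without a filter, and 25 to 1460 with 1 library left out, where the lone library of a group is assumed to vary like the others. edgeR and limma without those options called 0, with 4181 and 3425 genes at an unadjusted p under 0.05. The median member difference per fibroblast marker count was -0.07, and -0.30 without the 3 highest markers. Same-numbered libraries did not deviate together (correlation -0.12), so the numbers were not taken to pair them. With the replicate block 125 genes were called, 0 members as lower and 0 other mesenchymal factors as lower. The crossed pairing, chosen after seeing the data as was edgeR with TMM and robust options, gave 1282. The cause of these differences was not tested. *Tcf21* had the fewest reads of the members, 8 to 24 per library.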
